A study of Mus musculus with 12 samples.

Results

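The Hedgehog pathway genes described here are the ligand Shh, the receptor Ptch1, the ligand-binding co-receptors Gas1 and Boc, the signal transducer Smo, the transcription factors Gli1, Gli2 and Gli3, and the ligand-binding inhibitor Hhip. These 9 genes were taken by name from the 53801 genes listed for every library, and all 9 passed the filter on low counts. No cutoff on their values was used, but earlier results of these data were known when they were chosen. Bulk RNA-seq was done on the maxillary prominence, the embryonic facial swelling that forms the upper jaw and most of the palate. All libraries came from wild type C57BL/6 mouse embryos with no named treatment, at embryonic day 10.5 (E10.5), 11.5, 12.5 and 14.5, with 3 libraries per stage. Tissue of 7 littermates is named without saying whether that is per library, and separate litters are not named, so p-values measure only the spread between these libraries, which may be technical. E14.5 has a protocol entry of its own, so this stage and anything done differently for it cannot be told apart. The title of E14.5 replicate 1 names a pair of parts, so its file, used here as 1 library, may be a merge.

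Hedgehog ligands are secreted proteins that bind Ptch1 at the surface of receiving cells. Without ligand, Ptch1 keeps Smo inactive, and Gli3 and Gli2 are cut into repressors. Bound ligand frees Smo, Gli proteins then activate transcription, and Gli1, Ptch1 and Hhip are among the genes they switch on, so that Ptch1 and Hhip act as negative feedback. In the face, Shh is known from the oral, palatal and tooth-forming epithelium, while most of the receiving cells are in the mesenchyme beneath.

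Each library had between 28294837 and 33941430 counts in genes. Levels are counts per 1000000 counts (CPM), scaled between libraries by TMM (trimmed mean of M values), and folds and adjusted p-values are from edgeR's quasi-likelihood test over 18365 tested genes, called at an adjusted p under 0.05. The defining markers of facial mesenchyme (7 genes) and surface epithelium (12 genes) were above 0 in every library. Mesenchyme markers summed to 1178 to 1634 CPM in the E10.5 libraries, 2201 to 2402 in those of E11.5 and 1629 to 1940 in those of E12.5. At E11.5 all but Prrx2 rose and none fell, where 12.2% of tested genes rose and 12.9% fell. At E12.5 Col1a1 and Pdgfra rose and Prrx1, Twist1, Alx4 and Msx1 fell, where 27.1% of tested genes rose and 22.2% fell. In the E14.5 libraries the sum was 6123 to 8010 CPM. The last rise was carried by Col1a1, a collagen gene that bone-forming cells also express, which went from 485 ± 131 to 5698 ± 952 CPM (SD, n = 3). Of the other 6 mesenchyme markers, Pdgfra and Alx4 rose and Twist1 and Msx1 fell at that step, and Prrx1 (507 and 435 CPM) and Prrx2 (67.6 and 54.4 CPM) did not pass. The share of alignments that fell outside annotated genes separated the libraries: it was 2.67%, 1.92% and 4.88% in E10.5 replicates 1, 2 and 3. In the E11.5 libraries it was 2.16% to 2.42%, in those of E12.5 5.03% to 5.43%, and in those of E14.5 5.78% to 6.21%. E10.5 replicate 3 therefore stood with the later stages in this measure, and its values are given beside each result that they touch.

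All 9 members differed among the 4 stages, against 81.6% of all tested genes. From E10.5 to E11.5, Boc and Gli2 rose and Shh and Hhip fell, which is 2 of 9 in each direction, where 12.2% of tested genes rose and 12.9% fell. From E11.5 to E12.5 the members split: Shh, Ptch1, Gli1 and Hhip rose, and Smo, Gli2, Gli3 and Gas1 fell. These are 4 of 9 in each direction, against 27.1% higher and 22.2% lower among all tested genes. From E12.5 to E14.5, Boc, Gli2 and Gas1 rose and Shh fell, so 3 of 9 were higher and 1 lower against 23.0% and 24.0%. Between E10.5 and E14.5, 6 members were higher and 2 lower, against 36.6% and 33.8% of tested genes. The median log2 fold change of the 9 lay near that of all tested genes at each single step, at 0.03 against -0.04, -0.02 against 0.06 and 0.01 against -0.01, with members on both sides of it.

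**Figure D1:**
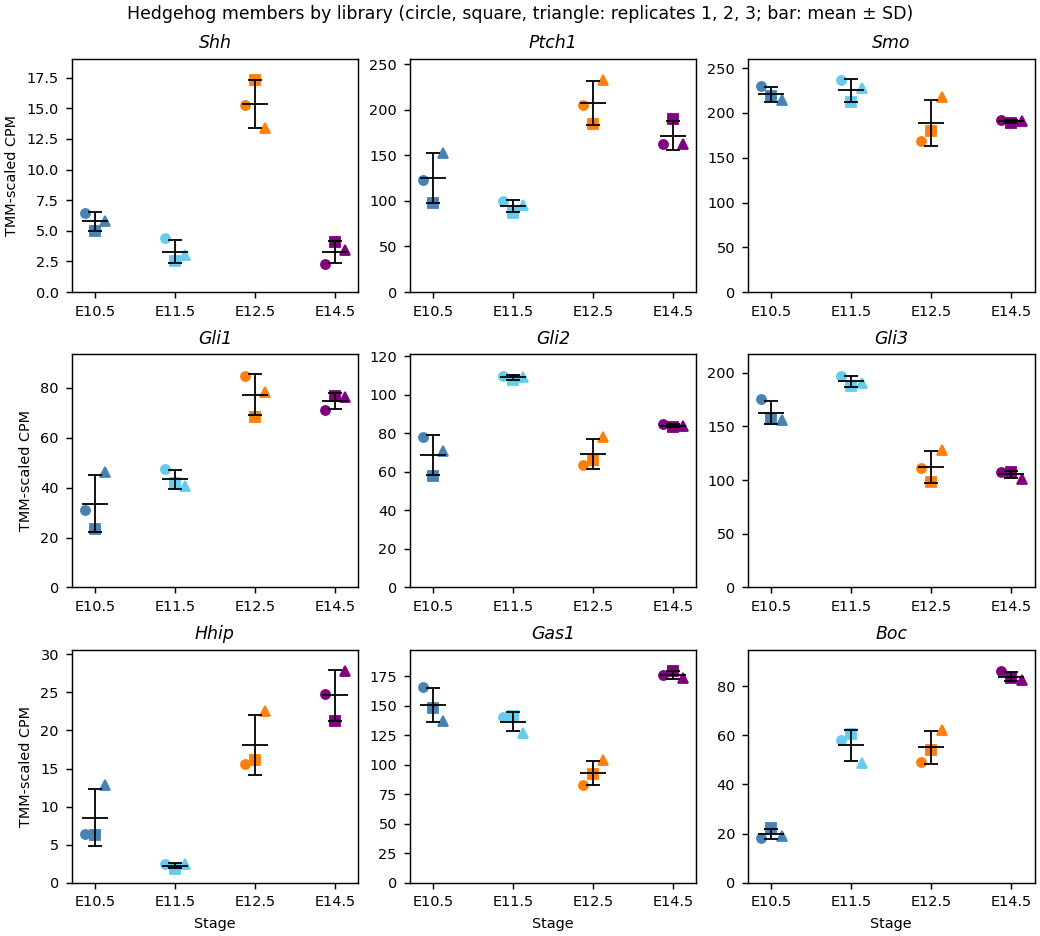
TMM-scaled CPM of each member (vertical axis, from 0, own scale per panel) in each of the 12 libraries by stage; symbols mark replicates and black bars the mean ± SD of 3 libraries. Shh stands highest at E12.5 and is low again at E14.5, while Gli1, Ptch1 and Hhip are still high at E14.5 and Gli2 and Gli3 are highest at E11.5.

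Shh (ENSMUSG00000002633, mm10 chr5:28456815-28467256, minus strand) peaked at E12.5. Its level was 6.49, 4.99 and 5.82 CPM in E10.5 replicates 1 to 3, 4.38, 2.52 and 3.03 at E11.5, 15.3, 17.3 and 13.4 at E12.5, and 2.30, 4.13 and 3.40 at E14.5. Every E12.5 library lay above every other library, and the E11.5 and E14.5 libraries overlapped each other below E10.5. Shh rose 4.64-fold from E11.5 to E12.5 (log2 2.21, SE 0.23, adjusted p = 1.67e-05) and fell 4.68-fold to E14.5 (log2 -2.23, SE 0.23, adjusted p = 7.77e-06). The earlier fall from E10.5 to E11.5 was smaller (log2 -0.80, SE 0.23, adjusted p = 0.0227), and it was not called without E10.5 replicate 1 (adjusted p = 0.0774), E11.5 replicate 2 (0.103) or E11.5 replicate 3 (0.0779). In bulk tissue, fewer cells of a type and less RNA per cell cannot be told apart.

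Because Shh is made by epithelium, its level was set beside the 12 surface epithelium markers. The E10.5 libraries had a summed level of 671 to 778 CPM, those of E11.5 904 to 960, those of E12.5 764 to 1356 and those of E14.5 1225 to 1849. The markers did not move together. From E12.5 to E14.5 the keratin genes of stratified epithelium Krt5 (65.1 to 530 CPM) and Krt14 (172 to 334) rose, as did Perp (85.0 to 253), and these 3 carried the E14.5 sum. Epcam (140 to 57.0 CPM), Krt8 (91.1 to 20.4), Krt18 (68.4 to 17.6), Cldn6 (73.1 to 13.9), Cldn7 (19.7 to 3.89) and Grhl2 fell at the same step as Shh. Among all tested genes, 23.0% rose and 24.0% fell at this step. Per 1000 CPM of these markers, Shh stood at 7.86 ± 0.46 CPM at E10.5, 3.52 ± 0.97 at E11.5, 15.4 ± 4.06 at E12.5 and 2.14 ± 0.23 at E14.5 (SD, n = 3), and the E14.5 value rests on the 3 markers that rose. From E11.5 to E12.5, Krt8, Krt18 and Epcam rose with Shh, and Trp63 and Krt5 fell, where 27.1% of tested genes rose and 22.2% fell. Markers of forebrain and optic neuroectoderm, another tissue that makes Shh, summed to 17.4, 65.3 and 45.4 CPM in E12.5 replicates 1, 2 and 3. Shh in these libraries was 15.3, 17.3 and 13.4 CPM. Among these markers, Otx2 and Six3 rose at E12.5 and fell at E14.5, as Shh did. The part of epithelial and neuroectodermal cells in the level of Shh was not tested. Part of the Shh exons, 361 and 446 bases, also lies in the antisense transcripts Gm26894 and 9530036O11Rik, whose reads this unstranded kit cannot separate.

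Among the other ligands, Ihh (Indian hedgehog, known from cartilage and bone) appeared late. It had 2, 1 and 7 counts in the E10.5 libraries, 1, 0 and 3 at E11.5, 10, 5 and 10 at E12.5 and 97, 98 and 126 at E14.5. Its mean level went from 0.25 ± 0.09 CPM at E12.5 to 3.12 ± 0.14 at E14.5 (SD, n = 3; log2 fold change 3.61, SE 0.44, adjusted p = 2.83e-05). Per kilobase of exon (FPKM), Shh made up at least 93.6% of the 3 ligands in each library of E10.5, E11.5 and E12.5. At E14.5 its share was 47.3% ± 6.20, Ihh had 43.3% ± 5.81, and Dhh (desert hedgehog) had 9.44% ± 0.40. The 4 markers of osteoblasts summed to between 51.1 and 72.9 CPM in the E12.5 libraries, and between 1380 and 1896 in those of E14.5. Ibsp carried this rise (0.32 to 1506 CPM), while Sp7 went from 5.44 to 92.6 and Runx2 from 55.8 to 88.1. Bglap, at 0.36 CPM at E14.5, did not pass the filter on low counts. In the cartilage list, Acan and Matn1 rose and Sox9 fell at the same step, where 23.0% of tested genes rose and 24.0% fell. The part of these cells in the level of Ihh was not tested.

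**Figure D2:**
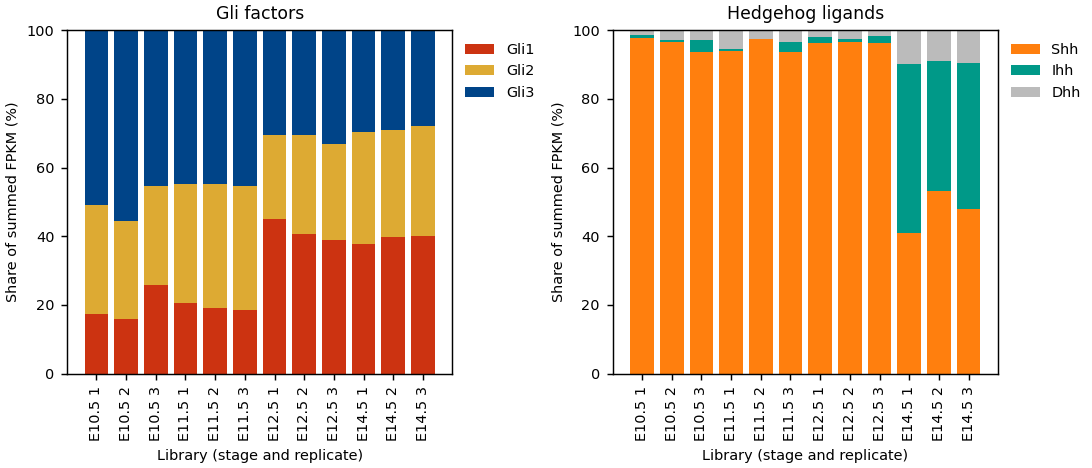
Share (%) of the summed FPKM of Gli1, Gli2 and Gli3 (left) and of Shh, Ihh and Dhh (right) in each of the 12 libraries. Gli1 takes the place of Gli3 as the largest part from E12.5 on, and Ihh is a large part of the ligands in the 3 E14.5 libraries.

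Ptch1 (ENSMUSG00000021466, mm10 chr13:63508328-63573598, minus strand), the receptor and itself a target of the pathway, was at 123, 97.8 and 153 CPM at E10.5, 100, 87.3 and 96.0 at E11.5, 206, 185 and 232 at E12.5 and 163, 190 and 162 at E14.5. All E12.5 and E14.5 libraries lay above all earlier ones, and E10.5 replicate 3 was the highest of the earlier libraries. From E10.5 to E11.5 the log2 fold change of Ptch1 was -0.40 (95% interval -0.72 to -0.08, adjusted p = 0.0514). It was called under 5 of 20 alternatives. Ptch1 rose 2.20-fold from E11.5 to E12.5 (log2 1.13, SE 0.14, adjusted p = 5.36e-05). From E12.5 to E14.5 it did not pass the test (log2 -0.27, 95% interval -0.59 to 0.04, adjusted p = 0.121). It was called lower there under 3 of 20 alternatives, including the share of alignments outside genes as covariate (log2 -0.40, adjusted p = 0.0163). Hhip (ENSMUSG00000064325, mm10 chr8:79965851-80058006, minus strand), a membrane-anchored decoy for the ligands, varied most among the members, with an SD of log2 CPM over the 12 libraries of 1.41. Its level was 6.46, 6.28 and 12.9 CPM at E10.5, 2.42, 1.86 and 2.48 at E11.5, 15.6, 16.2 and 22.6 at E12.5 and 24.8, 21.2 and 27.8 at E14.5. The 3 E11.5 libraries were the lowest of all, and the E12.5 and E14.5 libraries overlapped above the rest. Hhip fell 3.79-fold from E10.5 to E11.5 (log2 -1.92, SE 0.28, adjusted p = 0.000248) and rose 8.03-fold to E12.5 (log2 3.00, SE 0.28, adjusted p = 5.94e-06). The value for E14.5 against E12.5 was 0.44 (log2, 95% interval -0.10 to 0.98, adjusted p = 0.141), which passed without E10.5 replicate 3 (adjusted p = 0.0314).

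Ptch1 and Hhip are the members outside the Gli family that rose together with Shh at E12.5, and RefSeq (GRCm38.p6) gives a start site for both. The 250 bases upstream of each, 5′ to 3′ on the gene's strand, are shown with GC boxes (GGGCGG on either strand) in capitals; neither window overlaps an annotated exon.
Ptch1, chr13:63565736-63565985, minus strand: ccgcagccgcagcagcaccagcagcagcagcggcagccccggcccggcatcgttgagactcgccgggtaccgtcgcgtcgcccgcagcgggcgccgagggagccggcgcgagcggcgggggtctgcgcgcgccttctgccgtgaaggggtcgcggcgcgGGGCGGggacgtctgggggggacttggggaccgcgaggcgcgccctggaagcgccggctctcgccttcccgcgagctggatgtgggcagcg
Hhip, chr8:80058009-80058258, minus strand: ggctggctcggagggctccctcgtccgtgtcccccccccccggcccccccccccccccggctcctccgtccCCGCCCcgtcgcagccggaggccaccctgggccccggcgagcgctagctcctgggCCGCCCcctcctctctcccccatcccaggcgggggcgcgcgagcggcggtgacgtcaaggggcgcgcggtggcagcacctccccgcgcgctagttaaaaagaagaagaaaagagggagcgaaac
The windows are 78.4% and 76.0% G or C with 41 and 28 CpG, where the median of 32851 RefSeq windows of this length is 52.4% and 6. Ptch1 has 1 GC box and Hhip has 2, a motif found in 32.7% of all windows. Neither window holds the Gli consensus GACCACCCA on either strand, and 0.225% of all windows do. The Ptch1 start lies inside the annotated gene span, so longer transcripts begin further upstream.

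Gas1 and Boc, both surface proteins that bind Shh and help Ptch1 to receive it, took different courses. Gas1 (ENSMUSG00000052957, mm10 chr13:60174405-60177365, minus strand) was at 166, 148 and 137 CPM at E10.5, 141, 141 and 127 at E11.5, 83.1, 92.2 and 104 at E12.5 and 176, 179 and 173 at E14.5. The 3 E12.5 libraries were the lowest and the 3 E14.5 libraries the highest. Gas1 fell at E12.5, when Shh rose (log2 -0.55, SE 0.09, adjusted p = 0.000447), and rose 1.89-fold to E14.5, when Shh fell (log2 0.92, SE 0.09, adjusted p = 6.24e-06). Of its exon bases, 19.89% also lie in the antisense transcript Gm48488. Boc (ENSMUSG00000022687, mm10 chr16:44485049-44558897, minus strand) was at 18.3, 22.3 and 19.1 CPM at E10.5, 58.2, 60.7 and 48.8 at E11.5, 49.0, 53.9 and 62.2 at E12.5 and 86.2, 83.2 and 82.3 at E14.5. It went up in 2 steps with a plateau between: 2.81-fold from E10.5 to E11.5 (log2 1.49, SE 0.11, adjusted p = 1.07e-06) and 1.52-fold from E12.5 to E14.5 (log2 0.61, SE 0.11, adjusted p = 0.000459). Between E11.5 and E12.5 its log2 fold change was -0.02 (95% interval -0.27 to 0.22). By FPKM, Gas1 was 11.5 ± 1.89 times Boc at E10.5, 3.68 ± 0.21 times at E11.5, 2.54 ± 0.03 at E12.5 and 3.16 ± 0.09 at E14.5 (SD, n = 3).

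Smo (ENSMUSG00000001761, mm10 chr6:29735503-29761365, plus strand), the transducer that Ptch1 restrains, varied least, with an SD of log2 CPM of 0.15. It was at 230, 219 and 214 CPM at E10.5, 236, 212 and 228 at E11.5, 169, 180 and 218 at E12.5 and 192, 189 and 191 at E14.5. E12.5 replicate 3 lay within the range of the earlier libraries and the others of that stage below it. The test called a fall at E12.5 (log2 -0.25, SE 0.09, adjusted p = 0.0346), but with library size as the only scaling the value was -0.03 (adjusted p = 0.840). The call passed under 13 of 20 alternatives. It was lost with only the stages compared (adjusted p = 0.107), and without E11.5 replicate 1 (0.114), E11.5 replicate 3 (0.0818), E12.5 replicate 2 (0.0998) or E12.5 replicate 1. By FPKM, Ptch1 was 0.17 ± 0.002 times Smo at E11.5 and 0.44 ± 0.04 times at E12.5 (SD, n = 3).

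The Gli factors changed places between E11.5 and E12.5. Gli1 (ENSMUSG00000025407, mm10 chr10:127329882-127341974, minus strand), an activator whose own transcription depends on the pathway, was at 31.2, 23.5 and 46.1 CPM at E10.5, 47.5, 41.8 and 40.6 at E11.5, 85.0, 68.5 and 78.4 at E12.5 and 71.1, 77.0 and 76.3 at E14.5. All 6 libraries of the later stages lay above the 6 of the earlier stages, and E10.5 replicate 3 was within the E11.5 range. From E10.5 to E11.5 the log2 fold change was 0.36 (adjusted p = 0.156), and it was called without E10.5 replicate 3 (log2 0.66, adjusted p = 0.00295). Gli1 rose 1.79-fold from E11.5 to E12.5 (log2 0.84, SE 0.18, adjusted p = 0.00189), and from E12.5 to E14.5 its log2 fold change was -0.05 (95% interval -0.45 to 0.35, adjusted p = 0.842).

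Gli3 (ENSMUSG00000021318, mm10 chr13:15463235-15730026, plus strand), the main source of the Gli repressor, was at 175, 157 and 156 CPM at E10.5, 197, 188 and 190 at E11.5, 111, 98.4 and 128 at E12.5 and 107, 107 and 101 at E14.5. Each E12.5 and E14.5 library was below each E10.5 and E11.5 library. From E10.5 to E11.5 the log2 fold change was 0.24 (adjusted p = 0.0711), with every E11.5 library above every E10.5 library. Gli3 fell 1.71-fold from E11.5 to E12.5 (log2 -0.77, SE 0.09, adjusted p = 4.02e-05). Gli2 (ENSMUSG00000048402, mm10 chr1:118834132-119053619, minus strand), the main activator before Gli1 is made, was at 78.4, 57.7 and 70.8 CPM at E10.5, 110, 108 and 109 at E11.5, 63.7, 66.3 and 78.1 at E12.5 and 84.8, 83.3 and 83.8 at E14.5. The 3 E11.5 libraries stood above all others. Gli2 rose 1.58-fold to E11.5 (log2 0.66, SE 0.10, adjusted p = 0.000457) and fell 1.57-fold to E12.5 (log2 -0.65, SE 0.10, adjusted p = 0.00029). Its rise to E14.5 was small (log2 0.28, SE 0.10, adjusted p = 0.042) and passed under 11 of 20 alternatives, being lost when any 1 of the E14.5 libraries was left out.

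By FPKM, Gli1 made up 19.7% ± 5.29 of the 3 Gli factors at E10.5, 19.4% ± 1.08 at E11.5, 41.5% ± 3.13 at E12.5 and 39.2% ± 1.33 at E14.5 (SD, n = 3). The share of Gli3 was 50.6% ± 5.02 at E10.5, 44.9% ± 0.31 at E11.5, 31.4% ± 1.46 at E12.5 and 28.8% ± 0.94 at E14.5. The ratio of Gli3 to Gli1 was 2.17 to 2.44 in the E11.5 libraries, against 0.68 to 0.85 in the E12.5 libraries, with no overlap. These are transcript shares and do not show how much Gli protein was cut.

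**Figure D3:**
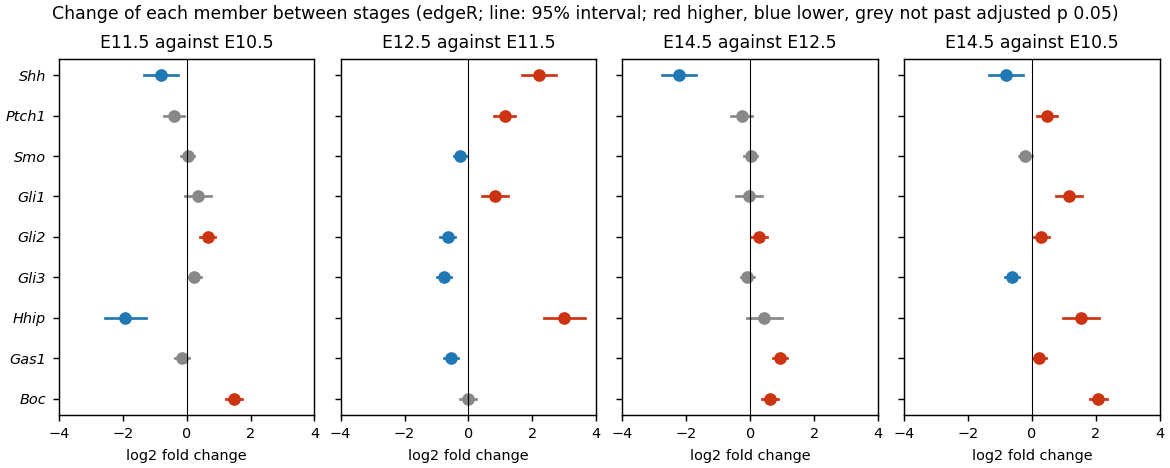
log2 fold change of each member (points, with 95% interval) in 4 comparisons of stages, from edgeR over all 12 libraries; red is higher, blue lower and grey not past an adjusted p of 0.05. In E12.5 against E11.5, 4 members are red and 4 blue, with Boc grey, and in E14.5 against E12.5 Shh alone is blue.

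Across the whole span, E14.5 against E10.5, Boc was 4.22-fold higher (log2 2.08, SE 0.11, adjusted p = 4.17e-09), Hhip 2.87-fold (log2 1.52, SE 0.24, adjusted p = 8.31e-05) and Gli1 2.22-fold (log2 1.15, SE 0.18, adjusted p = 5.86e-05). Ptch1 was 1.38-fold higher (adjusted p = 0.00898), Gli2 1.22-fold (0.0246) and Gas1 1.17-fold (0.0411), and these 3 calls were lost without E10.5 replicate 2. The call of Gas1 passed under 7 of 20 alternatives, that of Gli2 under 15 and that of Ptch1 under 18. The call of Gli2 was also lost when any 1 of the E14.5 libraries was left out. Gli3 was 1.54-fold lower (adjusted p = 3.46e-05) and Shh 1.76-fold lower (adjusted p = 0.00633). Smo had a log2 value of -0.21 (95% interval -0.42 to -0.002, adjusted p = 0.0515). With the share of alignments outside genes as covariate, 2 members passed over this span, Boc (log2 2.21) and Gli3 (-0.56), while Hhip had 0.57 (adjusted p = 0.145) and Gli1 0.45 (adjusted p = 0.113). In that fit 3576 genes rose and 3908 fell over this span among all 18365 tested.

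The levels of Gli1, Ptch1 and Hhip moved with the share of alignments outside genes. Within E10.5, replicate 3, with a share of 4.88%, had the highest Gli1, Ptch1 and Hhip of its stage, at 46.1, 153 and 12.9 CPM, while its Shh, at 5.82 CPM, lay between the other libraries. With this share as a covariate, the rise at E12.5 was still called for Shh (log2 2.23, adjusted p = 0.0217) and Hhip (1.92, adjusted p = 0.00873), and the falls of Gli2 (-0.83, adjusted p = 0.0352) and Gli3 (-0.70, adjusted p = 0.0429) were too. It was not called for Ptch1 (0.63, SE 0.21, adjusted p = 0.118) or Gli1 (0.05, SE 0.22, adjusted p = 0.936), nor were the falls of Gas1 and Smo. In that fit 407 genes rose and 286 fell at E12.5 among all tested. Since the share hardly varied within E11.5, E12.5 and E14.5, the adjustment rests mostly on the E10.5 libraries. The fall of Shh to E14.5 was the same in size (log2 -2.22, adjusted p = 2.77e-05). From E12.5 to E14.5 Ptch1, not called in the main fit, was called lower with the covariate (log2 -0.40, SE 0.12, adjusted p = 0.0163). The covariate fit also called Gli1 higher from E10.5 to E11.5 (log2 0.65, adjusted p = 0.00402).

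**Figure D4:**
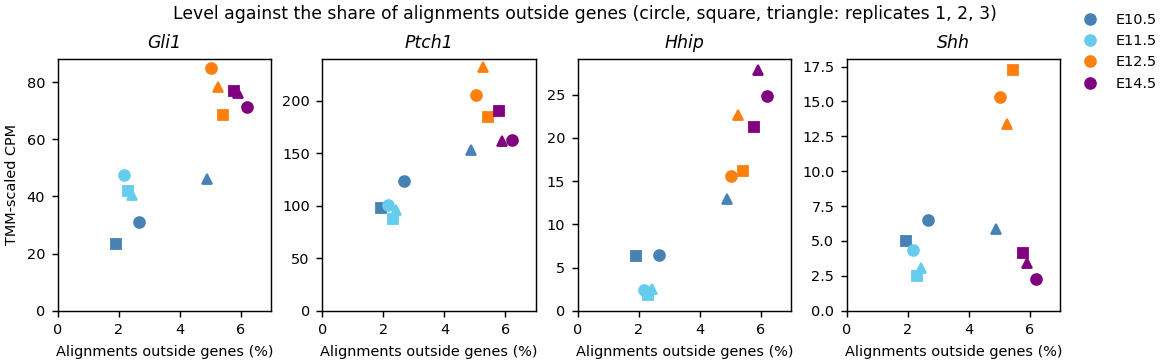
TMM-scaled CPM of Gli1, Ptch1, Hhip and Shh (vertical axes, from 0) against the share of alignments outside genes (%) in 12 libraries, coloured by stage with symbols for replicates. E10.5 replicate 3, at 4.88%, lies above the other E10.5 libraries for Gli1, Ptch1 and Hhip but not for Shh, and E14.5 libraries with 5.78% to 6.21% have low Shh.

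Ordered by FPKM, Gas1 (50.8 ± 4.93) and Smo (38.1 to 41.0 over its libraries) led at E10.5, and Hhip (0.94 ± 0.42) and Shh (2.03 ± 0.26) were lowest (SD, n = 3). Gli2, Ptch1, Gli1 and Boc stood next to each other there with overlapping libraries. At E12.5, Smo (33.6 ± 4.60) and Gas1 (31.4 ± 3.48) overlapped at the top, and Gli1, Ptch1, Boc, Gli3 and Gli2 formed a run from 15.5 to 10.1 in which each overlapped the next. At E14.5, Gas1 (59.5 ± 1.08), Smo (33.9 ± 0.29), Boc (18.8 ± 0.46) and Gli1 (15.0 ± 0.64) were separated from each other, and Shh (1.15 ± 0.32) had become the lowest. With the length of the longest transcript in place of all exons, Smo stood above Gas1 at E10.5 and E11.5 as well.

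The wider pathway was read from lists by role, chosen with earlier results of these data known, so their counts and medians are descriptions. The median log2 fold change of all tested genes was 0.06 for E12.5 against E11.5 and -0.01 for E14.5 against E12.5. Of 9 genes for ligand production and release, 3 rose (Ihh, Dhh and Disp2, all on few counts) and none fell from E11.5 to E12.5 (list median 0.53), where 27.1% of all tested genes rose and 22.2% fell. The call of Dhh passed under 10 of 20 alternatives, and none of the 3 was called with the covariate. From E12.5 to E14.5, 3 rose (Ihh, Scube2 and Disp1) and Scube3 fell (list median 0.57), against 23.0% and 24.0%. Scube2, a secreted protein that helps to release the ligand, went from 0.58 ± 0.14 to 4.35 ± 1.70 CPM at this step (log2 2.89, SE 0.49, adjusted p = 0.00035), and its relative Scube3 went from 112 ± 11.6 to 58.8 ± 2.01 CPM (log2 -0.93, SE 0.14, adjusted p = 0.000132). Disp2 was 1.70 ± 0.79 CPM at E10.5 and 0.24 ± 0.18 at E11.5 (SD, n = 3).

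Further genes of reception took separate courses. Cdon, a co-receptor related to Boc, took the course of Gas1: it fell to E12.5 (log2 -0.50, adjusted p = 0.000997) and rose 3.00-fold to 194 ± 18.8 CPM at E14.5 (SD, n = 3; log2 1.58, SE 0.10, adjusted p = 1.11e-07). Lrp2, an endocytic receptor for Shh in neural tissue, was 38.5 ± 9.40 CPM at E10.5 and 2.26 ± 0.80 at E14.5 (log2 -4.07, adjusted p = 5.76e-08). Gpc3, a proteoglycan that competes for the ligand, rose at E12.5 (log2 0.72, adjusted p = 0.000853) and fell at E14.5 (log2 -0.77, adjusted p = 0.00045). With the covariate, neither Cdon nor Gpc3 was called at E12.5.

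Genes that act inside the receiving cell form 2 lists. Of 14 genes of the Smo relay and cilium, 3 rose and 1 fell to E11.5, 1 rose and 2 fell to E12.5 (list median 0.02), and 1 rose and 3 fell to E14.5 (-0.06). Among all tested genes, 12.2% rose and 12.9% fell to E11.5, 27.1% and 22.2% to E12.5, and 23.0% and 24.0% to E14.5. Evc, which works next to Smo at the base of the cilium, rose to E11.5 (log2 0.65, adjusted p = 4.81e-05), and Arrb2 was lower at E14.5 than at E10.5 (log2 -0.79, adjusted p = 3.02e-06), as was Efcab7 (log2 -0.69, adjusted p = 0.0482), while Iqce was higher (log2 0.61, adjusted p = 6.84e-05). The call of Efcab7 passed under 11 of 20 alternatives. With the covariate neither Efcab7 nor Iqce was called, Efcab7 at -0.28 (log2, adjusted p = 0.695) and Iqce at 0.36 (adjusted p = 0.0895). Of 10 genes of Gli processing and restraint, 1 rose and 1 fell to E11.5, 1 rose and 4 fell to E12.5 (list median -0.15), and 2 rose and 2 fell to E14.5 (-0.06), to be read against the same shares of all tested genes. The gene that rose at E12.5 was the kinase gene Ulk3 (log2 1.16, SE 0.17, adjusted p = 0.000191), and those that fell were Cul3, Gsk3b, Sufu and Spop; none of these 5 was called with the covariate. Sufu, the cytoplasmic inhibitor of Gli proteins, was 90.8 ± 6.33 CPM at E11.5, 75.8 ± 8.51 at E12.5 and 62.3 ± 4.50 at E14.5 (SD, n = 3).

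Of 9 genes known to respond to Hedgehog in facial mesenchyme or in the cell cycle, the 5 forkhead genes Foxf1, Foxf2, Foxd1, Foxd2 and Foxl1 rose at E12.5, and Ccnd2 and Mycn fell, against 27.1% higher and 22.2% lower among all tested genes. At E14.5, 8 of 9 fell, the 5 forkhead genes, Mycn, Ccnd1 and Ccnd2, and Bcl2 rose, against 24.0% lower and 23.0% higher. The 5 forkhead genes and Mycn were called lower at E14.5 under all 20 alternatives, but Ccnd1 under 13, Bcl2 under 11 and Ccnd2 under 5. Without E14.5 replicate 1, or without replicate 3, 6 of the 9 were called, all lower. The fall of Ccnd2 at E12.5 passed under 13 of 20 alternatives, being lost without E11.5 replicate 1 or 3 or without E12.5 replicate 1 or 2. The list's median log2 fold change was 1.44 and then -1.30, against 0.06 and -0.01 for all tested genes. Since the list was chosen with earlier results of these data known, its counts and medians are no independent readout of Hedgehog response. Foxf1 was at 12.4, 10.8 and 8.71 CPM in the E11.5 libraries, 41.8, 48.0 and 53.8 at E12.5 and 7.54, 10.9 and 7.92 at E14.5, so the E12.5 libraries stood clear of both neighbours. Foxf2 had log2 fold changes of 2.46 (adjusted p = 4.02e-05) and -3.06 (adjusted p = 4.64e-06) at these steps, Foxl1 2.15 (0.000628) and -4.13 (8.25e-06), and Foxd1 2.89 (5.77e-06) and -1.30 (0.000709). With the share outside genes as covariate, only Foxd1 of these 5 was called at E12.5 (log2 2.75, adjusted p = 0.0112), and all 5 falls at E14.5 were called.

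Mycn took another course and fell at every step, from 136 ± 3.65 CPM at E10.5 to 16.9 ± 1.45 at E14.5 (SD, n = 3; log2 -3.01, adjusted p = 1.31e-10). The 4 markers of proliferating cells summed to 3255 to 3602 CPM at E11.5 and 1660 to 2115 at E12.5. All 4 fell at that step, where 22.2% of all tested genes fell. Their part in the values of Mycn and Ccnd2 was not tested.

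**Figure D5:**
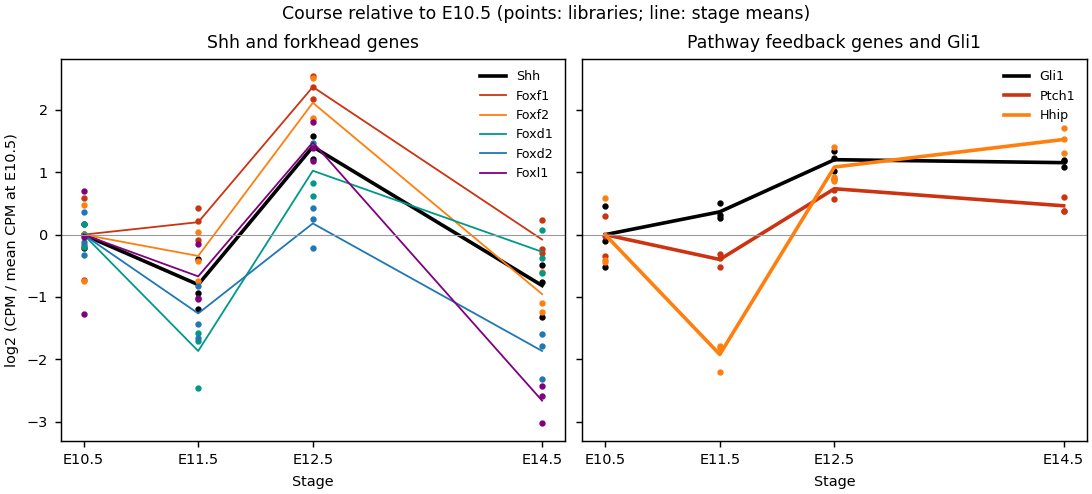
log2 of CPM relative to the gene's mean at E10.5 (vertical axis) against embryonic stage, for Shh with 5 forkhead genes (left) and for Gli1, Ptch1 and Hhip (right); points are libraries and lines join stage means. The genes on the left have their highest stage mean at E12.5 and are lower at E14.5, though Foxd2 libraries of E10.5 and E12.5 overlap. The stage means of the genes on the right are above 0 at E14.5.

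The genes most like a member were ranked by Pearson's r of log2 CPM over the 12 libraries, among 15652 genes, as a description. For Shh they were Foxe1 (r = 0.97), Gm12446 (0.94), Sox2 (0.94), Gm11377 (0.93) and Foxf2 (0.92). Foxe1, a forkhead factor of oral and pharyngeal epithelium, was 16.4 ± 1.96 CPM at E10.5, 7.95 ± 2.99 at E11.5, 36.5 ± 6.31 at E12.5 and 8.73 ± 2.93 at E14.5 (SD, n = 3). Sox2, a factor of oral epithelium and of neural progenitors, was 23.3 ± 5.04 CPM at E11.5 and 88.6 ± 21.3 at E12.5. For Gli1 the ranking gave 3110039I08Rik, Pcdh11x, Phf1, Nlgn3 and Zfp612 (r = 0.97 for each), and for Hhip it gave Cygb (0.98), Ptprm (0.98), Stk10 (0.97), Thbd (0.97) and Man1c1 (0.97). Ranked by Spearman's rho, the top 5 for Shh again held Foxe1, Gm12446 and Sox2, while those for Gli1 and Hhip held none of the same genes. The stages are shared by all 12 points of each r.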

How the data were processed

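Bulk poly-T-selected RNA libraries of 12 maxillary prominence samples, 3 at each of 4 stages, were made, per the labels' protocols, with an unstranded NEBNext Ultra kit. The submitters' processing notes name FastQC, STAR 2.7.3a, HTSeq 0.12.4 and mm10; annotation release and settings: not given in the sources used here. Raw counts were deposited by the authors, as whole numbers for each Ensembl gene, without normalization. Their 5 closing entries, 14.3% to 18.6% of alignments, were left out. GENCODE (mm10) gave symbols, positions and exon lengths for 53706 of 53801 identifiers; RefSeq (GRCm38.p6) promoter windows matched 6 of 9 members.

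The 28294837 to 33941430 counts per library were filtered with filterByExpr (minimum count 10), TMM-scaled and tested with edgeR 4.0.16 (R 4.3.3), quasi-likelihood, in 1 fit over 12 libraries with 8 residual degrees of freedom and Benjamini-Hochberg adjustment. The fit was tested on simulated data. FPKM is TMM-scaled CPM per kilobase of exon. DESeq2 1.42.0 and limma 3.58.1 were alternatives. Members and lists were chosen with earlier results of these data known. All members were named, and, per pathway list, up to 4 called genes with the largest fold change and a stage mean of at least 1 CPM; Foxf1, Foxd2, Dhh, Disp1, Spop, Ccnd1, Ccnd2, Bcl2 and the cell type markers given singly were named as members of a count after their values were seen. Libraries of a stage were not duplicates (chi-square per degree of freedom at least 4.38). The values of 1 gene of the reception list are not reported here.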

Additional observations from a re-analysis of the deposited data

How the results depend on the processing

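Under 20 alternatives (DESeq2's size factors, no filter, limma-voom, DESeq2, only the stages compared, a replicate block, the share of alignments outside genes as covariate, library size alone, which was chosen after seeing the data, and each of 12 libraries left out), no called change of a member reversed. Library size alone shifted the median over all genes by 0.22 (log2) at E12.5 and by 0.32 for E14.5 against E10.5, and calls became 6905 higher and 1875 lower, and 8828 and 4114; Shh at E14.5 against E10.5 was then not called (adjusted p = 0.0701).

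With the covariate the count of members called at E12.5 against E11.5 was 4 and at E14.5 against E10.5 it was 2. Of all 18365 tested genes, that fit called 407 higher and 286 lower at E12.5 against E11.5. It called 3576 higher and 3908 lower at E14.5 against E10.5, and 2167 and 2225 at E11.5 against E10.5. The covariate also gave 0 calls at E12.5 for ligand production, 0 for reception, 0 for the Smo relay, 0 for Gli processing and 2 for the responsive genes, 1 for Gli processing at E11.5, and 4 for the Smo relay and 2 for Gli processing at E14.5 against E10.5. By edgeR with the covariate, Disp1 turned to -0.10 there. With library size alone, Kif3a (0.31), Arl13b (0.046) and Btrc (0.28) turned positive in E14.5 against E10.5, Gli processing had 1 call at E11.5 and 1 at E12.5, and the Smo relay had 2 at E14.5 against E12.5. That scaling called 2297 tested genes higher and 1860 lower at E11.5, and 4590 and 3579 at E14.5 against E12.5. Limma-voom gave 1 call for reception and 1 for Gli processing at E11.5; with only the stages compared, reception had 1 at E11.5 and ligand production 1 at E12.5. The causes were not tested.

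Leaving out a library gave 3 to 6 members called at E11.5, and 5 to 9 for E14.5 against E10.5, the 5 without E10.5 replicate 2. It gave 1 to 2 calls for reception and 1 to 3 for Gli processing at E11.5, 1 to 4 for ligand production and 1 to 4 for the Smo relay at E12.5, and 1 to 5 for the Smo relay and 2 to 4 for Gli processing at E14.5 against E12.5.

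Replicate numbers did not pair the libraries: correlations of same-numbered deviations ran from -0.12 to 0.18. With the replicate block, 5, 8, 5 and 7 members were called in the 4 comparisons; Gas1 was lost at E14.5 against E10.5, and Ptch1 at E11.5 (adjusted p = 0.0435) and Hhip at E14.5 against E12.5 (adjusted p = 0.0251) were gained.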
